A study of Rattus norvegicus with 12 samples.

Results

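A set of 10 muscle genes was followed across the hearts of 12 male Sprague-Dawley rats, namely 6 genes of the ankyrin repeat and SOCS box family (Asb2, Asb10, Asb11, Asb14, Asb15 and Asb18), Ky, and the muscle ubiquitin ligase genes Fbxo32, Trim63 and Trim54. They were taken by symbol from the 34599 genes of the deposited table, and all 10 were among the 15101 genes with enough counts to be tested. The genes were chosen by their measured level in part, since Asb10 and Ky were known to be among the steepest falls after myocardial infarction (MI) against Sham. The difference between MI and Sham rats is therefore given for these 10 genes as a description without a p-value. RNA of the left ventricle was sequenced 1 day after surgery in 4 Sham, 4 MI and 4 iCarP+/Light+ rats. Sham rats had the chest opened only, and MI rats had the left anterior descending coronary artery tied. The iCarP+/Light+ rats had the same ligation, then 100 μL of a suspension of Chlorella, a green alga that makes oxygen in light, injected into the infarct 10 min later, a patch adhered over it on the epicardium, and 3 h of light at 55 mW. Alga, injection, patch, adhesive and light therefore came together against MI rats and cannot be told apart, and iCarP+/Light- rats were not analysed here. Tissue of the ligated rats came from the infarct region.

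Ubiquitin ligases mark proteins for breakdown by the proteasome. The Asb proteins are substrate receptors: their ankyrin repeats bind a target, and their SOCS box joins elongins B and C, the cullin Cul5 and the RING protein Rnf7. Fbxo32 (atrogin-1) is the receptor of another cullin complex, built on Skp1, Cul1 and Rbx1. Trim63 (MuRF1) and Trim54 (MuRF3) are RING ligases of the sarcomere that act without a cullin, and Trim54 also binds microtubules. Fbxo32 and Trim63 are the standard marker genes of muscle atrophy, raised there by FOXO factors, Klf15 and the glucocorticoid receptor. Ky is no ligase but a Z-disc protein with a transglutaminase-like domain that binds filamin C, and its loss causes kyphoscoliosis and myopathy in mice.

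Because these genes include atrophy genes with known transcriptional regulators, the bases upstream of 3 of them are shown, each with a value the results turn on: Trim63 as the atrophy marker, Trim54 as the gene that differed least after MI, and Asb15 as the gene called between iCarP+/Light+ and MI rats. The sequences are RefSeq's (GRCr8, 5′ to 3′ on the gene's strand) and end at the base before the listed gene start or earlier. Capitals mark matches on either strand to the FOXO, E-box, MCAT, GATA and glucocorticoid receptor motifs spelled out after the sequences.
Trim63, chr5:151816986-151817208, plus strand: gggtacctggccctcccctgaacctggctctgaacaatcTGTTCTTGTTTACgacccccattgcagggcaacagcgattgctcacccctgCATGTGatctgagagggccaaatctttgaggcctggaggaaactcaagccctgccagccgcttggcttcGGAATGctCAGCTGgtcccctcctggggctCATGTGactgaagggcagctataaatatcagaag
Trim54, chr6:30978476-30978725, minus strand: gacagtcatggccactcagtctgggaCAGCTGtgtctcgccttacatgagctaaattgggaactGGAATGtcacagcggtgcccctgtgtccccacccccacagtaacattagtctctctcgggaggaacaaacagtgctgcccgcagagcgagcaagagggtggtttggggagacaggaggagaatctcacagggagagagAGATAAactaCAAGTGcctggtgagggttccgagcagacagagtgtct
Asb15, chr4:53986967-53987216, plus strand: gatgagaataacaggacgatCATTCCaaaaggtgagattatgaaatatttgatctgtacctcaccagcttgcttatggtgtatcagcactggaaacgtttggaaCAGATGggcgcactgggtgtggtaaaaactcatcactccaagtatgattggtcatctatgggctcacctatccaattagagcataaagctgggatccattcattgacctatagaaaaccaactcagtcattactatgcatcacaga
RefSeq windows of 250 bases before the start were found for 8 of the 10 genes. Trim63 alone among these 8 had the FOXO motif, spelled GTAAACA, which 3.22% of all 33465 windows held, and there it lay 205 bases before the start, directly after a glucocorticoid half-site without overlapping it. Trim63 and Asb14 had that half-site, spelled AGAACA, against 17.5% of all windows. Trim63, Trim54 and Asb15 had the MCAT motif, spelled GGAATG, against 12.1% of all windows. Trim54 alone had the GATA motif, spelled AGATAA, against 10.3% of all windows. The E-box, spelled CANNTG, was in 7 of the 8 genes and in 65.5% of all windows, Ky being the gene without it. The MEF2 motif was matched in Asb14 and Asb18, against 2.96% of all windows. These are matches of letters, with no measurement of binding in these rats.

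The reads assigned to genes numbered 14064414 to 17136958 a rat. Levels are in CPM, the read count of a gene relative to the size of its library, adjusted by TMM for differences in composition, and 3 counts, taken as the floor of a library, were worth 0.144 to 0.228 CPM, for counting error only. Groups were compared by edgeR's quasi-likelihood test over all 15101 genes, with Benjamini-Hochberg adjusted p below 0.05 as a call. Markers of cell types differed between the groups. The summed level of the 14 tested of 15 listed cardiomyocyte markers was 69700 to 74580 CPM in Sham, 4973 to 10560 CPM in MI and 4478 to 11780 CPM in iCarP+/Light+ rats, and 13 of the 14 were called lower in MI than in Sham rats. The 11 tested of 12 leukocyte markers summed to 276 to 462.6 CPM in Sham, 4467 to 7802 CPM in MI and 6929 to 12530 CPM in iCarP+/Light+ rats. Against Sham, 6 of 9 fibroblast markers were called lower and 1 higher in MI rats, and all 6 tested endothelial markers were called lower. Of 6 tested red blood cell markers, 5 were called lower in MI against Sham rats, and 4 were called higher in iCarP+/Light+ against MI rats. From the fast skeletal muscle list 4 genes had enough counts to be tested. Those 4 summed to 8.46 to 9.56 CPM in Sham, 6.80 to 27.6 CPM in MI and 16.8 to 21.6 CPM in iCarP+/Light+ rats. Among them Mybpc2 was called higher in MI than in Sham rats (log2 difference 1.83, adjusted p 0.00305 by edgeR), and the other 3 were not called. Fewer cardiomyocytes and less RNA of a gene per cardiomyocyte cannot be told apart in such bulk samples.

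In the uninjured left ventricle the 10 genes spanned a wide range of levels. Divided by gene length, the mean of the Sham rats was 106.7 RPKM (the CPM per kilobase) for Trim54, 80.3 RPKM for Asb2 and 42.4 RPKM for Trim63, and these top 3 did not overlap over the 4 rats. Asb14 (21.9 RPKM), Fbxo32 (19.7 RPKM), Asb11 (17.7 RPKM) and Asb10 (17.3 RPKM) followed, each overlapping its neighbour in this order. Ky had 10.9 RPKM and overlapped neither neighbour, and the lowest were Asb18 with 7.90 RPKM and Asb15 with 6.50 RPKM, which overlapped each other. The CV over the 4 Sham rats was between 4.39% (Asb11) and 21.3% (Asb18). In MI rats the mean was still highest for Trim54 at 56.9 RPKM, next for Asb2 at 7.22 RPKM and lowest for Ky at 0.159 RPKM. Only Trim54 and Asb2, and Trim63 and Fbxo32, were then neighbours without overlap.

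The atrophy genes Fbxo32 and Trim63 were lower, not higher, 1 day after infarction. Fbxo32 (ENSRNOG00000006738, minus strand of chromosome 7, 98063735 to 98098268 in rn6) had 76.3, 49.7, 67.9 and 57.05 CPM in Sham rats 1, 2, 3 and 5, and 3.40, 12.8, 2.57 and 7.87 CPM in MI rats 1, 3, 4 and 5. The highest MI rat lay well below the lowest Sham rat, and the 4 MI rats differed among themselves several-fold. The log2 difference, MI minus Sham, was -3.24 (SE 0.42), with a mean at 10.6% of Sham. Trim63 (ENSRNOG00000016543, plus strand of chromosome 5, 152533349 to 152547179) had 90.7, 81.3, 66.4 and 83.1 CPM in the Sham rats and 8.04, 12.7, 11.8 and 12.02 CPM in the MI rats. Its MI rats lay close together, with a CV of 18.9%, the smallest of the 10 genes in that group. The log2 difference was -2.85 (SE 0.25), at 13.9% of Sham. Trim54 (ENSRNOG00000006146, minus strand of chromosome 6, 26603369 to 26624092) kept the most of its level, with 155.7, 155.5, 162.1 and 187.2 CPM in Sham rats and 53.9, 109.6, 86.5 and 102.2 CPM in MI rats. The groups did not overlap, but the lowest Sham rat was only 1.42 times the highest MI rat. The log2 difference was -0.91 (SE 0.26), at 53.3% of Sham. Trim54 depended on the scaling: with total counts alone the difference was -0.33, and -0.85 relative to the median of all genes under that scaling. The CPM ratio of Trim63 to Trim54 was 0.410 to 0.583 in Sham and 0.116 to 0.149 in MI rats.

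Among the Asb genes, Asb10 was the lowest after infarction relative to Sham. Asb10 (ENSRNOG00000024885, plus strand of chromosome 4, 7158448 to 7167509), a gene linked to glaucoma in people, had 38.5, 30.5, 30.9 and 43.0 CPM in Sham rats and 0.0479, 1.19, 0.168 and 0.319 CPM in MI rats. The MI values rest on 1, 22, 3 and 6 counts, so 2 of the 4 MI rats were at or under the floor of 3 counts and MI rat 3 held most of the reads. The log2 difference was -6.37 (SE 0.64), at 1.21% of Sham, and the lowest Sham rat was 25.7 times the highest MI rat. Without MI rat 3 the log2 difference was -7.61.

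Asb14, Asb15 and Asb11 were next. Asb14 (ENSRNOG00000013346, plus strand of chromosome 16, 2537248 to 2556735) had 40.6, 38.5, 45.2 and 51.6 CPM in Sham rats and 1.05, 3.40, 1.23 and 1.54 CPM in MI rats, a log2 difference of -4.60 (SE 0.42). Asb15 (ENSRNOG00000006365, plus strand of chromosome 4, 51614676 to 51644492), a gene linked to skeletal muscle growth, had 26.6, 24.9, 31.6 and 27.1 CPM in Sham rats and 1.00, 2.59, 0.280 and 0.957 CPM in MI rats, a log2 difference of -4.50 (SE 0.46). Sham rats were close together for both genes, and no MI rat came near them. Asb11 (ENSRNOG00000003452, minus strand of chromosome X, 31700633 to 31780425), whose protein has been reported to target the apoptosis inducer Bik, had 46.5, 44.3, 42.5 and 42.5 CPM in Sham rats and 0.862, 4.37, 2.85 and 1.92 CPM in MI rats, a log2 difference of -4.14 (SE 0.45). Asb11 had the tightest Sham values of the 10 genes. MI rat 3 was the highest MI rat for Asb10, Asb14, Asb15 and Asb11 alike.

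Asb18 and Asb2 differed least among these 6 Asb genes. Asb18 (ENSRNOG00000019557, minus strand of chromosome 9, 97085234 to 97151832) had 13.7, 11.8, 14.1 and 8.48 CPM in Sham rats and 0.0958, 1.73, 1.06 and 0.692 CPM in MI rats, a log2 difference of -3.75 (SE 0.63). MI rat 1 held only 2 counts of Asb18. Asb2 (ENSRNOG00000051619, minus strand of chromosome 6, 127212273 to 127248372) marks filamins for breakdown and has a muscle and a blood cell isoform, which the table counts together. It had 181.6, 248.6, 213.3 and 211.9 CPM in Sham rats and 11.2, 19.7, 23.8 and 22.1 CPM in MI rats, a log2 difference of -3.48 (SE 0.33). Asb2 was the only one of the 10 genes whose highest MI rat was rat 4.

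Ky (ENSRNOG00000008210, plus strand of chromosome 8, 110982777 to 111022385) was at 1.46% of Sham in MI rats. It had 54.6, 52.8, 55.5 and 74.4 CPM in Sham rats and 0.287, 2.16, 0.168 and 0.851 CPM in MI rats, from 6, 40, 3 and 16 counts. Sham rat 5 stood above its group, and the lowest Sham rat was still 24.5 times the highest MI rat. The log2 difference was -6.10 (SE 0.58), and -7.06 without MI rat 3. By size of fall, Asb10 ranked 3 and Ky ranked 5 among 10434 protein-coding genes with at least 5 CPM in Sham, Asb14 ranked 51, Asb15 ranked 57 and Asb11 ranked 96. Over all 15101 tested genes, including those low in Sham, Asb10 ranked 19 and Ky ranked 25. Among the protein-coding genes the remaining ranks were 153 for Asb18, 209 for Asb2, 271 for Fbxo32, 392 for Trim63 and 2548 for Trim54.

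**Figure D1:**
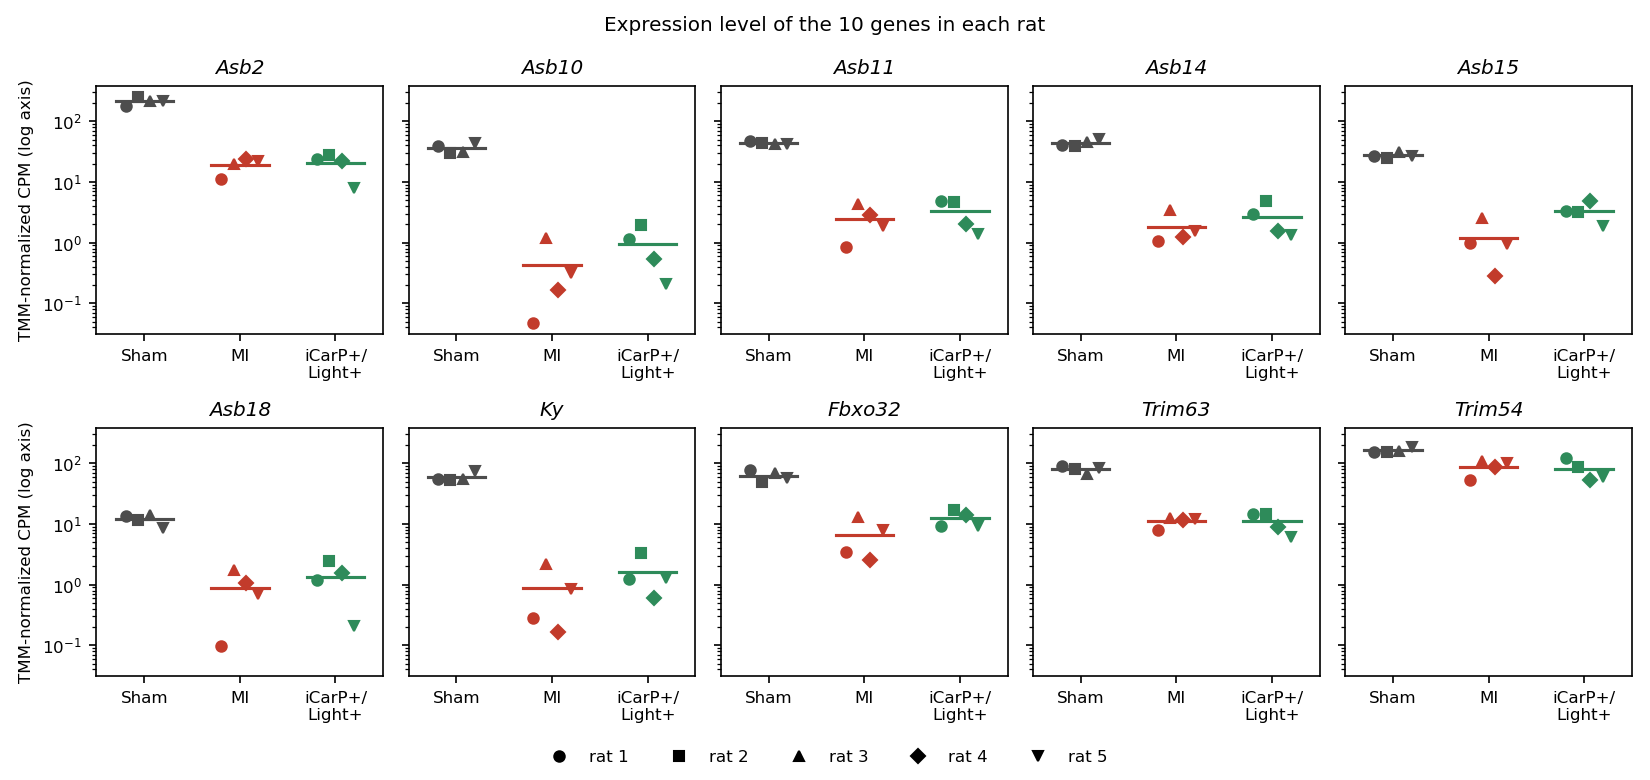
CPM (TMM-scaled, log axis) of the 10 genes in each of the 12 rats, 1 point per rat with a line at the group mean, for Sham, MI and iCarP+/Light+. No MI or iCarP+/Light+ point reaches the lowest Sham point of the same gene, and the gap is narrowest for Trim54 (lowest Sham rat 155.5 CPM, highest ligated rat 120.3 CPM, in iCarP+/Light+).

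All 10 genes were called lower and 0 higher in MI than in Sham rats, while 63.8% of all tested genes were called, 33.6% lower and 30.2% higher, and in all 10 the groups did not overlap, as in 31.4% of all tested genes with MI lower. The choice of genes fixed these counts, and nothing is read from them. Their median log2 difference was -3.95, against -0.06 over all tested genes.

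Set against the cardiomyocyte markers, the genes separated from one another. For each rat, the mean log2 CPM of the 14 markers was subtracted from the gene's log2 CPM, which gives the gene's level relative to these cardiomyocyte genes. This relative level was different by -3.40 for Asb10 and by -3.34 for Ky on the log2 scale, MI minus Sham. The relative differences were -1.66 for Asb15, -1.63 for Asb14, -1.25 for Asb11, -0.89 for Asb18, -0.50 for Asb2 and -0.45 for Fbxo32. Trim63 stood at 0.17, so its level differed by about as much as the mean of these markers. Trim54 was higher relative to them, by 2.07. On this relative scale the groups did not overlap, with MI lower, for Asb10, Asb11, Asb14, Asb15 and Ky, while 1.17% of all tested genes showed that. For Trim54 they did not overlap with MI higher, as in 90.9% of all tested genes. In iCarP+/Light+ against Sham rats the relative levels did not overlap, with iCarP+/Light+ lower, for Asb10, Asb11, Asb14 and Ky, which 0.934% of all tested genes showed, and with iCarP+/Light+ higher for Trim54, as in 90.8% of all tested genes. The relative levels come from the same rats and the same contrast as the choice of genes and are a description.

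**Figure D2:**
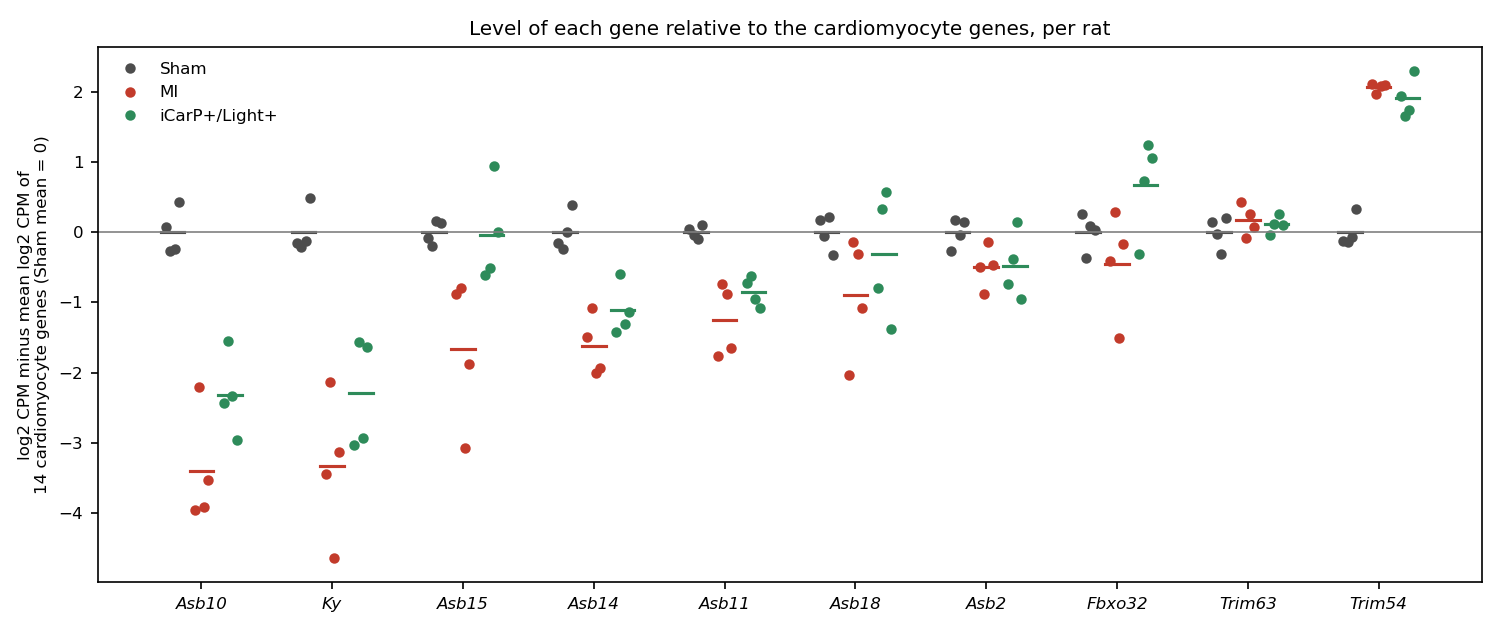
Log2 CPM of each of the 10 genes minus the mean log2 CPM of 14 cardiomyocyte markers, 1 point per rat, for Sham, MI and iCarP+/Light+. Values are set to a Sham mean of 0, and short lines mark group means. In MI rats Asb10 and Ky lie at -3.40 and -3.34 on this log2 scale, Trim63 lies near Sham (0.17) and Trim54 lies above (2.07).

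The comparison of iCarP+/Light+ with MI rats asked whether the genes differed in treated infarcts. It is tested here over all genes, but it shares the 4 MI rats with the contrast that led to the choice. Asb15 was the only one of the 10 genes that passed. The iCarP+/Light+ rats 1, 2, 4 and 5 had 3.32, 3.14, 4.88 and 1.90 CPM of Asb15, against 1.00, 2.59, 0.280 and 0.957 CPM in the MI rats. Rats 1, 2 and 4 lay above every MI rat, whereas rat 5 lay below MI rat 3. The log2 difference was 1.45 (SE 0.45), with a 95% interval of 0.49 to 2.41 and an adjusted p of 0.0475 by edgeR. Asb15 rose from 4.39% to 12.02% of the Sham mean, so it remained far under Sham. The call rests on few reads, 92 counts over the 4 MI rats, and it was kept in 4 of 19 other settings, with adjusted p from 0.00357 to 0.145 and a log2 difference from 1.13 to 2.12. Relative to the cardiomyocyte markers, Asb15 was 1.61 higher on the log2 scale without overlap between the groups, which 2.76% of all tested genes showed in that direction and 0.437% in the other.

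Of the 9 genes that did not pass, Asb10, Ky and Fbxo32 had the largest differences. Asb10 stayed in the test only through its level in Sham: with the MI and iCarP+/Light+ rats alone it had too few counts to be tested. The iCarP+/Light+ rats had 9.39, 17.2, 13.8 and 9.35 CPM of Fbxo32, and 2 of them exceeded the highest MI rat at 12.8 CPM. The log2 difference was 0.91 (SE 0.40, 95% interval 0.03 to 1.78), with an adjusted p of 0.178. The CPM ratio of Fbxo32 to Trim63 was 0.636, 1.18, 1.53 and 1.51 in the iCarP+/Light+ rats, 0.219 to 1.00 in MI and 0.611 to 1.02 in Sham rats. Asb10 had 1.13, 1.93, 0.542 and 0.211 CPM in iCarP+/Light+ rats, from 18, 32, 8 and 3 counts, with a log2 difference of 1.18 (SE 0.70, 95% interval -0.33 to 2.70) and an adjusted p of 0.325. Ky had 1.25, 3.26, 0.610 and 1.27 CPM in the iCarP+/Light+ rats, with a difference of 0.91 (95% interval -0.42 to 2.24) and an adjusted p of 0.404. Single rats weighed on these values. Without MI rat 3, Asb10 (log2 difference 2.43, adjusted p 0.0404), Asb15 (2.12, adjusted p 0.00357) and Fbxo32 (1.43, adjusted p 0.0211) all passed in edgeR. Nothing is read from the pass of Asb10, which met the count filter only through the Sham rats. In the other direction, Asb10 stood at 0.58 (adjusted p 0.732) without iCarP+/Light+ rat 2 and at 0.79 without MI rat 1, and Fbxo32 at 0.64 without MI rat 4. Ky stood at 1.88 without MI rat 3 and at 0.28 without iCarP+/Light+ rat 2, and passed in neither case.

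The intervals of the other genes differed in width. Trim63 had 14.8, 14.6, 9.01 and 6.19 CPM in iCarP+/Light+ rats, on both sides of its MI values, with a log2 difference of 0.01 (95% interval -0.52 to 0.53) and an adjusted p of 0.993. Asb2 had 24.2, 27.6, 22.2 and 7.95 CPM, with a difference of 0.10 (95% interval -0.58 to 0.77). Trim54 had 120.3, 87.8, 52.2 and 58.9 CPM and was the only gene with a negative difference, -0.14 (95% interval -0.70 to 0.42). For these 3 genes a log2 difference of 1 in either direction lay outside the interval. The differences were 0.61 (95% interval -0.77 to 1.99) for Asb18, 0.58 (-0.32 to 1.48) for Asb14 and 0.41 (-0.54 to 1.36) for Asb11. Asb18 lay between 0.211 and 2.42 CPM, Asb14 between 1.34 and 4.77 CPM and Asb11 between 1.41 and 4.95 CPM in the 4 iCarP+/Light+ rats, each range overlapping that of the MI rats. For Ky, Asb18, Asb14 and Asb11 the intervals hold both 0 and a log2 difference of 1.

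In all, 1 of the 10 genes was called higher and 0 lower by edgeR in iCarP+/Light+ than in MI rats, while 11.6% of all tested genes were called higher and 2.01% lower, so the share among the 10 was near the background. Unadjusted p was below 0.05 for 2 of the 10, Asb15 and Fbxo32, both higher, and DESeq2 likewise called 1 higher and 0 lower. The difference was positive for 9 of the 10, with a median of 0.60 against 0.01 over all tested genes. The choice in part of genes low in MI favours positive differences, and the genes moved together within groups. Nothing is therefore read from that number or median. In none of the 10 did the groups' CPM separate fully, as 12.1% of all tested genes did with iCarP+/Light+ higher. Against Sham, all 10 genes remained lower in iCarP+/Light+ rats without overlap (31.6% of all tested genes did so), and all 10 were called, as were 66.5% of all tested genes, 33.0% lower and 33.5% higher. The log2 differences ran from -5.19 for Asb10 and Ky to -1.05 for Trim54, with a median of -3.26. This last comparison shares the Sham rats with the choice of genes and is given as values only.

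**Figure D3:**
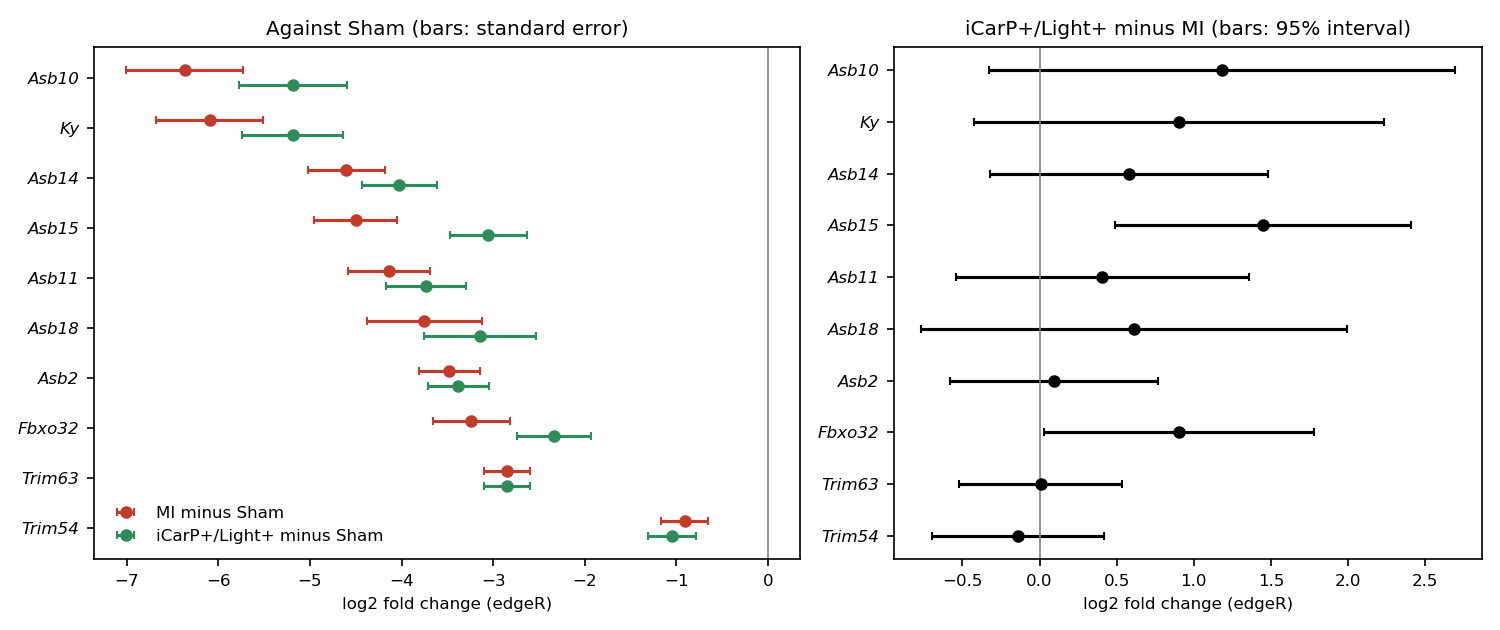
Fitted log2 differences of the 10 genes, for MI minus Sham and iCarP+/Light+ minus Sham in the left panel (bars are the SE) and for iCarP+/Light+ minus MI in the right panel (bars are 95% intervals). Differences from Sham run from -6.37 (Asb10, MI) to -0.91 (Trim54, MI), and from MI the interval of Asb15 (0.49 to 2.41) is called after adjustment.

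Within the ligated groups the 10 genes ranked the rats much alike. MI rat 3 was the highest MI rat in 9 of the 10 genes, MI rat 1 was the lowest in 7 and MI rat 4 in the other 3. Among iCarP+/Light+ rats, rat 2 was the highest in 6 genes and rat 5 the lowest in 8. The mean log2 CPM over the 10 genes was 0.85, 2.64, 1.34 and 1.81 in MI rats 1, 3, 4 and 5, and 2.56, 2.97, 2.11 and 1.43 in iCarP+/Light+ rats 1, 2, 4 and 5, whereas Sham rats lay between 5.69 and 5.81. The cardiomyocyte markers had the same order in the MI rats, but not in the iCarP+/Light+ rats, where rat 1 and not rat 2 was the highest: their mean log2 CPM was lowest in MI rat 1 (7.81) and highest in MI rat 3 (8.98), and it was 9.14, 8.98, 8.14 and 7.77 in iCarP+/Light+ rats 1, 2, 4 and 5. Their part in the order of the rats was not tested.

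Deviations from the group means were correlated over the 12 rats for each pair of the 10 genes, as a description, since the points share libraries and depth. All 45 pairs were positive, from 0.14 (Asb15 with Trim54) to 0.96 (Asb10 with Asb14), with a median of 0.67. Asb11 (0.94), Trim63 (0.92) and Trim54 (0.90) followed the cardiomyocyte markers most closely, and Asb15 least (0.29), with Fbxo32 at 0.47 and Ky at 0.57. Asb15 and Fbxo32 had a correlation of 0.79 with each other. All 10 correlations with the leukocyte markers were negative, from -0.68 to -0.37.

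**Figure D4:**
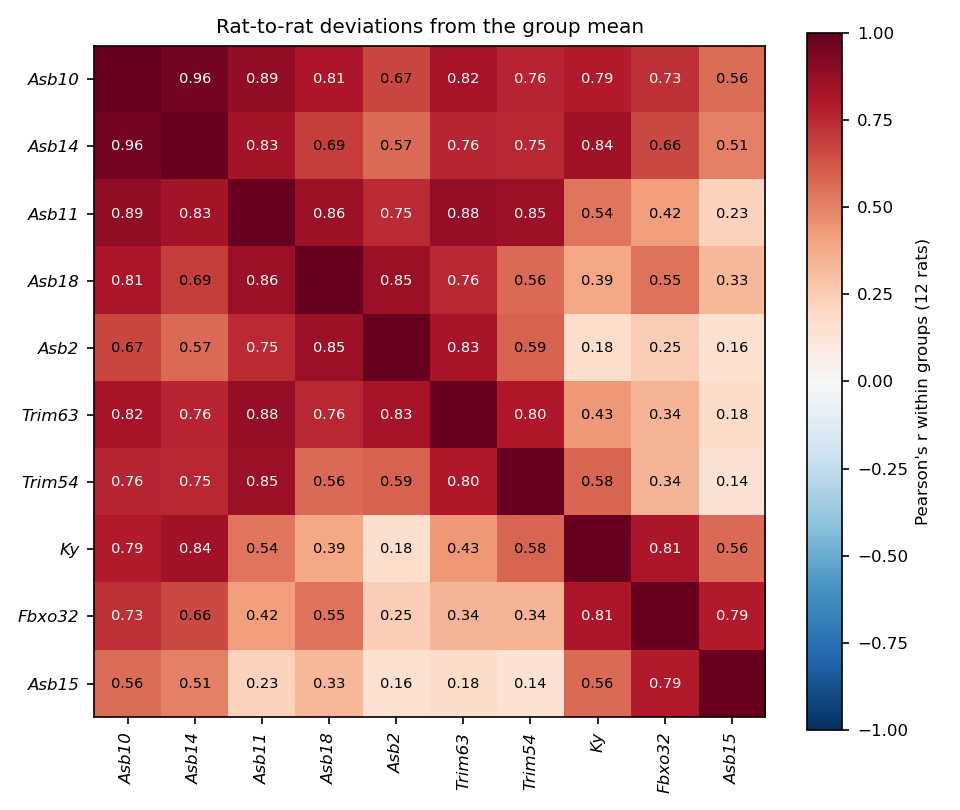
Pearson correlations of log2 CPM deviations from group means over 12 rats between the 10 genes, printed in each cell and as a colour from -1 to 1. The 45 pairs run from 0.14 (Asb15 with Trim54) to 0.96 (Asb10 with Asb14), and Asb15 has its highest value with Fbxo32 (0.79).

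Of 23 listed cullin-RING core genes, 22 were tested, and 4 were called higher and 11 lower in MI than in Sham rats (30.2% and 33.6% of all tested genes), with a median log2 difference of -0.33. The most reduced were Ube2d1, a ubiquitin-conjugating enzyme (-1.86, SE 0.13), Cand2, a cullin exchange factor of muscle (-1.81, SE 0.15), Cul9 (-1.34, SE 0.15) and Cul4a (-1.17, SE 0.09). For the Asb complex, Cul5 (-0.58) and elongin B (Elob, -0.41) fell, whereas elongin C (Eloc, -0.02, adjusted p 0.904 by edgeR) and Rnf7 (-0.24, adjusted p 0.338) did not pass. For the Fbxo32 complex, Skp1 fell (-0.53), and Cul1 (-0.14, adjusted p 0.267) and Rbx1 (0.19, adjusted p 0.299) did not pass. In iCarP+/Light+ against MI rats 3 core genes were called higher and 0 lower: Ube2d3 (0.44, adjusted p 0.0402), Cul3 (0.33, adjusted p 0.0373) and Cul4b (0.30, adjusted p 0.0408). These 3 of 22 are near the 11.6% of all tested genes called higher. DESeq2 called 3 higher and 0 lower as well, and 0 were lower at an unadjusted p below 0.05.

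Of 20 tested genes of 22 listed other ligases and substrate receptors of muscle, 15 fell and 1 rose in MI against Sham rats, against 33.6% lower and 30.2% higher over all tested genes, with a median of -0.82. Klhl38 (-4.33), Fbxo40, which targets the insulin receptor substrate IRS1 (-3.77), Rnf207 (-3.70) and Klhl31 (-3.36) fell most, and Cblb rose (1.13). Trim55 (MuRF2), the relative of Trim63 and Trim54, went from 106.0 ± 20.3 CPM in Sham to 35.4 ± 4.15 CPM in MI rats (SD, n = 4 each; log2 difference -1.58), and the membrane repair gene Trim72 differed by -2.32. In iCarP+/Light+ against MI rats Traf6 (1.29, adjusted p 0.00429) and Nedd4l (0.70, adjusted p 0.00997) rose and none of the 20 fell by edgeR, by DESeq2 or at an unadjusted p below 0.05, a count near the background of 11.6% called higher. Of the 10 tested of 12 other Asb genes, 7 fell with MI (33.6% of all tested genes), among them, at a mean of 5 CPM or more, Asb12 (-2.75), Asb8 (-1.03) and Asb3 (-0.74), Asb6 rose (0.68), and the median was -0.89. None of these 10 was called between iCarP+/Light+ and MI rats by edgeR or by DESeq2, 1 had an unadjusted p below 0.05, and the median was -0.12.

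The genes listed as regulators of Fbxo32 and Trim63 did not share a single pattern. The list also holds genes that the glucocorticoid receptor induces, and Fkbp5, the only gene called higher with MI, is among them. Of 16 tested of 19 listed genes, 9 fell and 1 rose in MI against Sham rats (33.6% and 30.2% of all tested genes), with a median of -0.69. Klf15 went from 58.3 ± 14.7 CPM in Sham to 4.52 ± 1.75 CPM in MI rats (SD, n = 4 each; -3.69), Ppargc1a differed by -2.95 and Prkaa2 by -2.77, whereas of 3 genes that the glucocorticoid receptor induces, Fkbp5 rose (1.61) and Per1 (-1.23) and Tsc22d3 (-1.39) fell. Foxo1 (-1.01) and Foxo4 (-1.53) fell, and Foxo3 did not pass (-0.38, adjusted p 0.269 by edgeR). In iCarP+/Light+ against MI rats 6 of the 16 rose and 0 fell by edgeR and by DESeq2 (11.6% higher and 2.01% lower over all tested genes in edgeR), with 7 higher and 0 lower at an unadjusted p below 0.05 and a median of 0.21. Ddit4, an inhibitor of mTORC1 induced by stress and low oxygen, went from 54.3 ± 7.93 CPM in MI to 327.6 ± 105.7 CPM in iCarP+/Light+ rats (SD, n = 4 each; log2 difference 2.59, adjusted p 1.18e-05 by edgeR). Foxo3 went from 21.9 ± 8.11 CPM to 58.4 ± 21.9 CPM (1.42, adjusted p 0.00544), Nfkb1 rose by 1.28 (adjusted p 7.02e-05) and Tfeb by 1.10 (adjusted p 0.00334). Over the same rats Fbxo32 differed by 0.91 and Trim63 by 0.01, neither past the threshold. Of the 11 tested leukocyte markers, 6 also rose and 1 fell between these groups, and their part in the regulators' differences was not tested.

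Of the substrates and partners, 21 of 24 listed genes were tested, and 7 rose and 6 fell in MI against Sham rats, shares near the 30.2% higher and 33.6% lower over all tested genes, with a median of 0.28. The sarcomere genes Myh6 (-4.73), Fhl2 (-3.49), Mybpc3 (-3.25) and Tnni3 (-3.07) fell most. Flna, a target of Asb2, and Flnc, a partner of Ky, went the other way: Flna (1.17) and Flnc (1.44) rose with MI, and Flnc was 255.3 ± 18.9 CPM in Sham and 694.5 ± 206.6 CPM in MI rats (SD, n = 4 each). In iCarP+/Light+ against MI rats 3 genes of this list rose and 0 fell, among them Jak2 (0.87, adjusted p 5.61e-04 by edgeR). The 3 of 21 are near the 11.6% of all tested genes called higher. By DESeq2 1 gene of the list was lower, and 3 were at an unadjusted p below 0.05 in edgeR. Flna is also strongly expressed outside muscle, and its source among the cells was not tested.

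**Figure D5:**
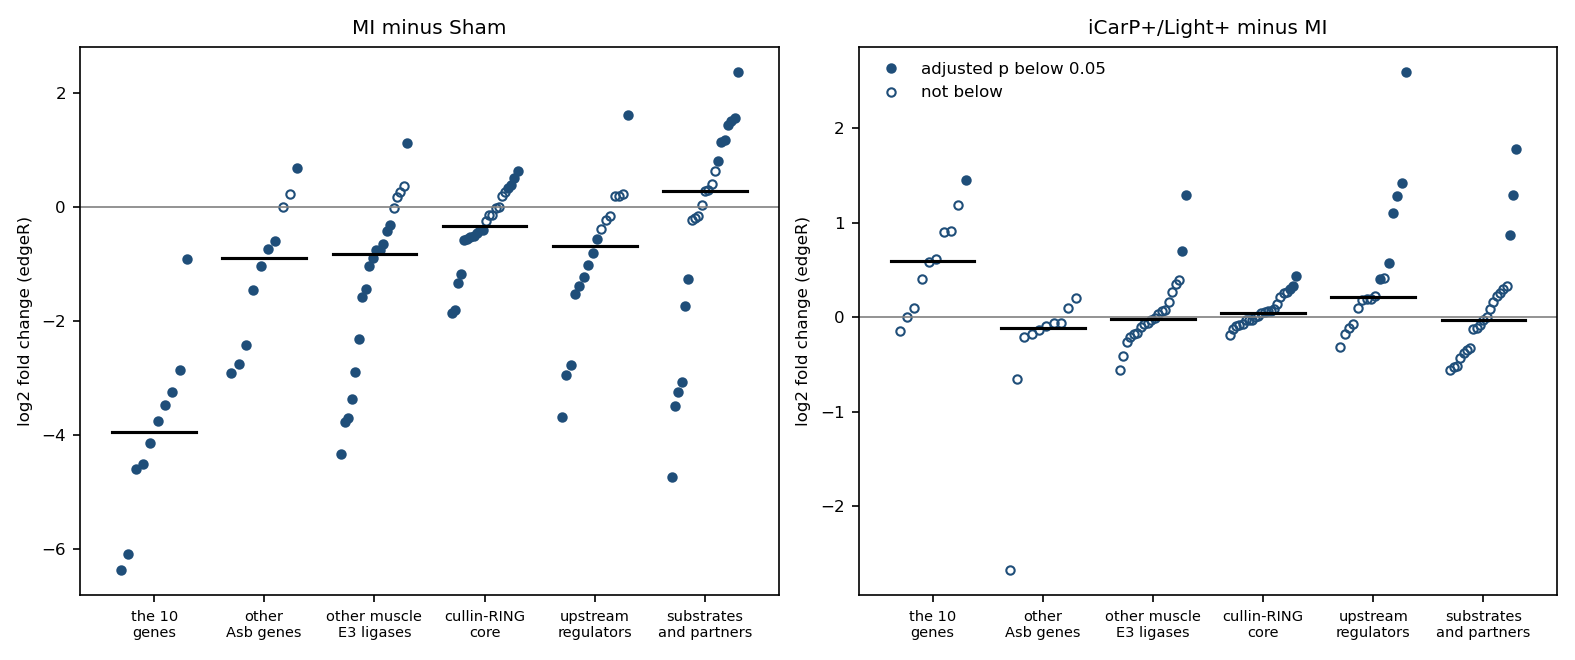
Fitted log2 differences of the 10 genes and of each tested gene of the 5 pathway lists, 1 point per gene (filled where the adjusted p was below 0.05) with a line at the median, for MI minus Sham (left) and iCarP+/Light+ minus MI (right). In MI minus Sham the list medians run from -0.89 (other Asb genes) to 0.28 (substrates and partners), and in iCarP+/Light+ minus MI from -0.12 to 0.21.

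The genes most like Asb10 and Ky over the 12 rats were sought among 10713 other protein-coding genes by Pearson's r of log2 CPM. For Asb10 they were Trdn (triadin of the sarcoplasmic reticulum, r 0.995), Klhl38 (0.995), Perm1 (0.994), Gata5 (0.994) and Tmem179 (0.994). For Ky they were Ppp1r13l (0.993), Prkce (0.991), AABR07069462.1 (0.989), Tmem116 (0.989) and Klhl38 (0.987). These coefficients are carried by the distance of Sham from both ligated groups, which all of these genes share.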

How the data were processed

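RNA-seq of left ventricle was available from 12 rats, 4 per group, and groups were taken from the sample labels. The deposited table holds unnormalized read counts of each gene, together with gene positions and lengths. Per the labels, reads were processed with HISAT2 and featureCounts on rn6, with versions and the strand setting not given in the sources used here. Libraries were made with the NEBNext Ultra RNA kit.

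The counts were fitted by edgeR 4.0.16 under R 4.3.3 (filterByExpr, minimum count 10; TMM; quasi-likelihood test; 1 mean per group; 3 group contrasts). Benjamini-Hochberg adjustment ran over the 15101 genes tested, with a threshold of 0.05. Log2 CPM used a prior count of 2. RPKM used the deposited gene lengths. The SE is the log2 difference divided by the root of F, with 95% intervals from the t distribution on the fit's degrees of freedom.

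The 10 genes, the lists and the rules were chosen with earlier results of these data known. List genes were matched by exact symbol only. All 10 genes are named. From each pathway list, up to 4 called genes with the largest change per contrast and a mean of at least 5 CPM are named, and for Asb10 and Ky the 5 most similar genes. A gene that this rule takes from the substrates is not reported here. Cul5, Cul1, Rnf7, Rbx1, Elob, Eloc, Skp1, Trim55, Trim72, Foxo1, Foxo4, Foxo3, Per1 and Tsc22d3 in MI against Sham, Flna and Flnc are named for their known role, after their values had been seen. Rats of a group were taken as separate animals, and no pair of libraries agreed within counting noise (chi-square per gene 14.9 to 120 over 18 pairs). Simulated data covered the 15101 genes tested, a set filtered with the Sham rats included. For iCarP+/Light+ against MI rats, edgeR recovered 86.7% of genes changed by 2 on the log2 scale and 50.7% changed by 1. False calls made up 3.96%. Recovery at the low MI levels of Asb10 (mean 0.430 CPM) and Ky (mean 0.866 CPM) was not tested separately. Alternatives were DESeq2 1.42.0 and its size factors, total counts, other filters, no mitochondrial genes, only the compared rats, a replicate block and each rat left out.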

Additional observations from a re-analysis of the deposited data

Results flagged for a closer look

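Ky in Sham rats was set apart by Sham rat 5 at 74.4 CPM, against 52.8 to 55.5 CPM in the other 3 rats. On log2 CPM, the gap to the nearest rat was 0.853 of the group's range, above Dixon's critical value for 4 samples. Of 30 groups examined (10 genes in 3 groups), this was the only 1 past that value, where chance gives about 1.5. The lowest Sham rat remained 24.5 times the highest MI rat for Ky.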

How the results depend on the processing

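Counts of the 10 genes called lower against Sham were 6 with at least 10 counts in every sample, for MI and for iCarP+/Light+ alike, because only 6 of the genes stayed in that test. Between iCarP+/Light+ and MI rats the number called, 1 in the reported fit, was 0 with DESeq2 size factors, total counts, at least 10 counts, no mitochondrial genes, only the compared rats or the replicate block, and 0 to 3 with a rat left out (3 without MI replicate 3). Asb10 was not tested with only the compared rats, having too few counts there. Over all genes this comparison called 2051, but 3926 (1204 higher) with total counts alone and 1298 (1157 higher) with the replicate block. With a rat left out the counts were 9035 to 9858 for MI against Sham, 1399 to 2504 for iCarP+/Light+ against MI and 9541 to 10575 for iCarP+/Light+ against Sham.

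Total counts moved the median of all genes to 0.52 (MI against Sham), -0.25 (iCarP+/Light+ against MI) and 0.33 (iCarP+/Light+ against Sham), and 7707 of 10483 calls were then higher in MI than Sham, against 4553 of 9633 with TMM. Under that scaling Trim63 turned to -0.25 in iCarP+/Light+ against MI, or 0.00 relative to that median. Trim54 in MI against Sham lost its call there (-0.33) and with the block (-0.82). Same-numbered rats are different animals, and their deviations correlated at -0.15 to 0.07. Rats with different numbers had -0.15 to 0.20. What the numbers stand for is not given in the sources used here, and whether they mark a shared batch was not tested. With the block, Asb15 differed by 1.82 (adjusted p 0.0587). Without iCarP+/Light+ rat 2, Asb10 stood at -5.79 and Ky at -5.81 against Sham, and without MI rat 3, Asb15 stood at -5.17 in MI against Sham. Asb10, Asb15, Asb18 and Ky had 32 to 92 counts over the 4 MI rats, which limits their precision.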
